A study of Homo sapiens with 8 samples.

Results

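The miR-200 family is a group of microRNAs (miRNAs, short RNAs that guide the silencing of messenger RNAs) made from 5 hairpin precursors. Its 9 mature products are hsa-miR-200a-3p and hsa-miR-200a-5p, hsa-miR-200b-3p and hsa-miR-200b-5p, hsa-miR-200c-3p and hsa-miR-200c-5p, hsa-miR-141-3p and hsa-miR-141-5p, and hsa-miR-429. They were taken by name from a count table of 1780 mature miRNAs, and all 9 were above the filter on low counts in both cell lines. The table covered 8 small RNA libraries from 2 human colorectal adenocarcinoma lines, DLD1 and HT29, each grown as a flat monolayer (2D) or as multicellular spheroids (MCS), with 2 libraries per group that the labels call biological replicates. DLD1 cells were kept in RPMI and seeded at 35000 cells per flask for 2D and 7000 cells per agarose-coated round-bottom well for MCS. HT29 cells were kept in DMEM and seeded at 100000 and 3500 cells, respectively. Both media held fetal bovine serum, all cultures ran for 6 days, and both lines are established lines without genetic modification. The NEXTflex small RNA kit was version V3 for DLD1 and V2 for HT29, so line, medium and kit cannot be told apart in any comparison of the lines. The question was whether the family differed between MCS and 2D within each line.

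In epithelial cells the family is best known for silencing ZEB1 and ZEB2, transcription factors that shut off the E-cadherin gene during epithelial-mesenchymal transition (EMT), the switch by which epithelial cells lose their junctions and become motile. The ZEB factors in turn repress the genes of the family, so the levels of both are tied in a loop. A hairpin is cut into a 5p and a 3p arm, one of which is usually loaded into the silencing complex while the other is degraded. What a miRNA binds is set mostly by its seed, the stretch of bases near its 5′ end.

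A mature sequence was found in RefSeq (table of build GRCh38.p14) for 8 of the 9 members. The sequences are shown because the family is divided by a single base of the seed, and because pairs of members from different chromosomes are nearly identical. They are written 5′ to 3′ with the seed, bases 2 to 8, in capitals.
The 3p products with the seed AAUACUG are:
hsa-miR-200b-3p: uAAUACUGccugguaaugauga
hsa-miR-200c-3p: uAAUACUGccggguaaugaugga
hsa-miR-429: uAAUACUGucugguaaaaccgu
The 3p products with the seed AACACUG are:
hsa-miR-200a-3p: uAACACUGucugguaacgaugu
hsa-miR-141-3p: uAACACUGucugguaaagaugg
The 5p products are:
hsa-miR-200a-5p: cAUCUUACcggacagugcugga
hsa-miR-200b-5p: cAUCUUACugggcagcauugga
hsa-miR-200c-5p: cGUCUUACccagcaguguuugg
Counted from 1 at the 5′ end, hsa-miR-200b-3p and hsa-miR-200a-3p differed in the seed at U4C. Over the 22 shared positions, hsa-miR-200a-3p and hsa-miR-141-3p differed at C17A and U22G. For hsa-miR-200b-3p and hsa-miR-200c-3p the substitutions were U11G and A22G, with 1 further base at the 3′ end of hsa-miR-200c-3p. How reads that match several of these miRNAs were counted is not given in the sources used here, so the split of counts within each near-identical pair is uncertain. None of the 3p seeds was shared with another miRNA of the table that had a RefSeq sequence, and GUCUUAC was shared with hsa-miR-550a-3p.

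The hairpins of MIR200B and MIR200C, which yielded the most abundant members, show where the arms lie. Here the capitals mark the 5p arm and then the 3p arm.
MIR200B: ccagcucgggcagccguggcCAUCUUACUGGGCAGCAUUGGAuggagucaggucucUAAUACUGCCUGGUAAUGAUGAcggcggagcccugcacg
MIR200C: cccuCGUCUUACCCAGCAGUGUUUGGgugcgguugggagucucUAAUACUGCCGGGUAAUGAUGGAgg
In the GRCh37 annotation, MIR200B (chr1:1102484-1102578), MIR200A (chr1:1103243-1103332) and MIR429 (chr1:1104385-1104467) lie in a row on the plus strand of chromosome 1, span 1984 bases and overlap no other annotated gene. MIR200C (chr12:7072862-7072929) and MIR141 (chr12:7073260-7073354) span 493 bases on the plus strand of chromosome 12, in an intron of the long non-coding RNA MIR200CHG.

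The libraries held between 10495634 and 26211524 counts on miRNAs. The replicate 1 libraries of HT29 stood apart from the replicate 2 libraries before any comparison was made. One miRNA outside the family, hsa-miR-10a-5p, took 47.3% (2D) and 38.5% (MCS) of their counts, against 10.6% and 6.57% in replicate 2 and 15.2 to 19.0% in the DLD1 libraries. Levels below are CPM (library-size-scaled counts) after upper quartile scaling (normalized CPM), set within each line, and a level is therefore not compared between the lines. Since a read covers a whole mature miRNA and the sequences above are 22 or 23 bases long, no correction for length was made. How evenly the kits capture different miRNAs was not measured, so ranks and ratios between members describe counts rather than molecules. In bulk libraries, fewer cells with a miRNA and less of it per cell cannot be told apart.

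The family was a large fraction of all miRNA counts in both lines. In DLD1 cells it held 9.62% and 11.1% of the counts in the 2D libraries and 17.0% and 16.9% in the MCS libraries, so both MCS values lay above both 2D values. In HT29 cells its share was 5.22% (2D) and 6.63% (MCS) in the replicate 1 libraries and 16.2% (2D) and 17.4% (MCS) in the replicate 2 libraries. There the replicates of a culture differed by far more than the cultures did, and the group means of 10.7% ± 7.79 (SD, n = 2) and 12.04% ± 7.65 (SD, n = 2) overlapped. The 95% Wilson intervals of these shares reached at most 0.0180 percentage points to either side and cover counting error only. With hsa-miR-10a-5p left out of the denominator the DLD1 means were 12.3% in place of 10.4% in 2D and 20.9% in place of 17.0% in MCS. In HT29 the replicate 1 shares were then 9.90% (2D) and 10.8% (MCS) and the replicate 2 shares 18.2% and 18.7%, so the replicates stayed further apart than the cultures.

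Most of the family's counts fell on hsa-miR-200b-3p and hsa-miR-200c-3p. In every DLD1 library hsa-miR-200c-3p ranked first, hsa-miR-200b-3p second, and together they held 89.4 to 92.2% of the family's counts. In every HT29 library hsa-miR-200b-3p ranked first. There hsa-miR-200b-3p and hsa-miR-200c-3p together held 82.0% and 82.2% of the family in 2D and 74.2% and 75.3% in MCS. The levels of these 2 miRNAs did not overlap in any group. Further down, hsa-miR-429 lay above hsa-miR-200a-3p in DLD1 2D, where their values did not overlap, but not in DLD1 MCS, where they did. Likewise hsa-miR-141-3p and hsa-miR-200b-5p overlapped in both DLD1 groups. In HT29, hsa-miR-200c-3p lay above hsa-miR-200a-3p in 2D without overlap, whereas in MCS the order turned in 1 of the 2 replicates. At the bottom of the order in all 8 libraries were hsa-miR-141-5p and then hsa-miR-200c-5p, the latter with 32 to 467 counts per library.

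**Figure D1:**
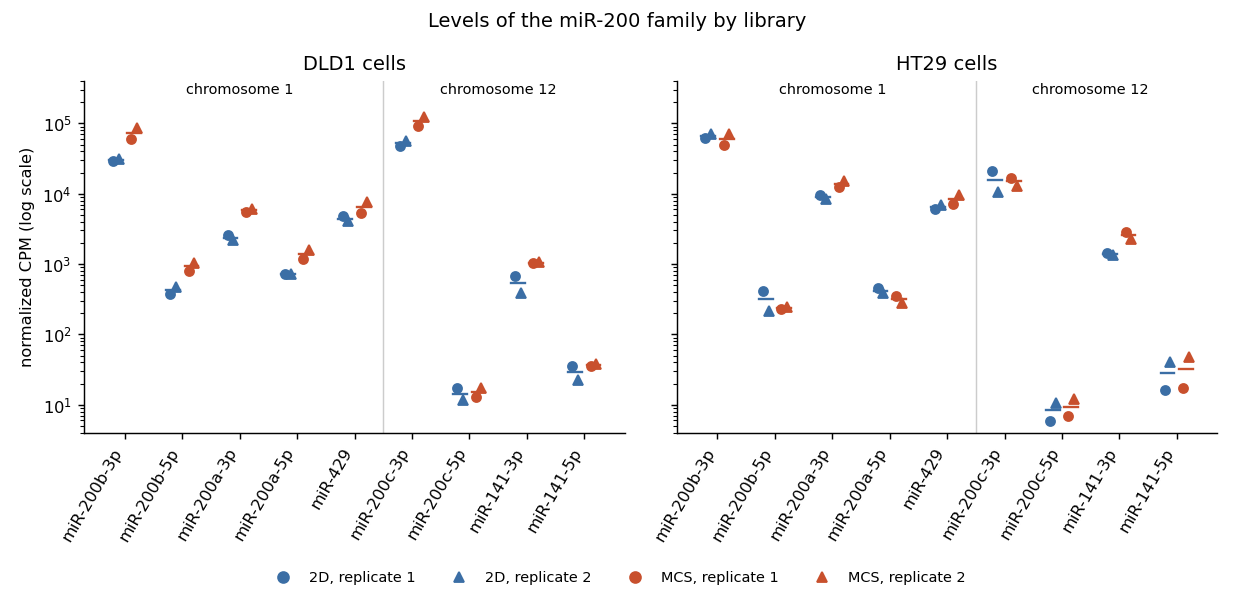
Normalized CPM (log scale) of the 9 members in each library, with DLD1 cells on the left and HT29 cells on the right; points are single libraries, short lines are group means (n = 2), and the grey line separates the members of chromosome 1 from those of chromosome 12. In DLD1 cells hsa-miR-200c-3p reached 90902 and 123782 in MCS against 48346 and 55910 in 2D, whereas in HT29 cells the values of most members overlapped between the cultures.

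In DLD1 cells, 6 of the 9 members were up-regulated in MCS compared to 2D and none was down-regulated, by the quasi-likelihood test of edgeR, with p-values adjusted over 346 miRNAs by the Benjamini-Hochberg method (adjusted p under 0.05 and at least 1.5-fold). The background was high: 30.1% of all tested miRNAs were called up, and the median log2 fold change over all of them was 0.23 under this scaling, so changes were also taken relative to that median. The members' median log2 fold change was 0.98. Relative to the median of all miRNAs, the 6 called members were higher by 0.70 to 1.06, hsa-miR-429 by 0.34 and hsa-miR-141-5p by 0.14. The 6 were both arms of miR-200a and miR-200b and the 3p arms of miR-200c and miR-141, from both chromosomes and both 3p seeds.

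Of the chromosome 1 members, hsa-miR-200b-3p measured 29202 and 31348 normalized CPM in DLD1 2D and 59791 and 84874 in MCS. Both MCS libraries were above both 2D libraries, 2.39-fold on the fitted scale (log2 1.26 ± 0.33 SE, adjusted p = 0.000629, edgeR), which was 1.03 above the median of all miRNAs. Its seed is that of hsa-miR-200c-3p and hsa-miR-429. The other arm, hsa-miR-200b-5p, was found at 377 and 476 in 2D and at 806 and 1044 in MCS. The groups were again apart, with a rise of 2.16-fold (log2 1.11 ± 0.23 SE, adjusted p = 9.07e-06). For hsa-miR-200a-3p, which carries the other 3p seed, the levels were 2588 and 2173 in 2D and 5452 and 6140 in MCS. Its groups were apart as well, with a rise of 2.44-fold (log2 1.28 ± 0.25 SE, adjusted p = 2.02e-06). Its partner arm hsa-miR-200a-5p had 731 and 718 in 2D against 1161 and 1597 in MCS. That was a rise of 1.90-fold (log2 0.93 ± 0.23 SE, adjusted p = 0.000271), with close 2D replicates and a wider gap between the MCS replicates. The third hairpin of the locus gave less: hsa-miR-429 measured 4743 and 4045 in 2D and 5323 and 7673 in MCS. Its groups did not overlap, but the 1.48-fold difference (log2 0.56 ± 0.25 SE) did not pass the test (adjusted p = 0.0554).

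Of the chromosome 12 members, hsa-miR-200c-3p was the most abundant, at 48346 and 55910 normalized CPM in DLD1 2D and 90902 and 123782 in MCS. It was up-regulated 2.06-fold (log2 1.04 ± 0.35 SE, adjusted p = 0.00865, edgeR), with no overlap between the groups. The neighbouring hairpin's main product, hsa-miR-141-3p, was at 686 and 382 in 2D and at 1035 and 1066 in MCS. Here it was the 2D replicates that were far apart, and the rise was 1.97-fold (log2 0.98 ± 0.23 SE, adjusted p = 0.00011). The minor arms were scarce. Counts of hsa-miR-141-5p corresponded to 35.7 and 22.8 in 2D and 35.7 and 38.1 in MCS (log2 0.37 ± 0.31 SE, adjusted p = 0.330). For hsa-miR-200c-5p the values were 17.3 and 11.5 in 2D and 13.04 and 17.2 in MCS. It was the sole member whose DLD1 groups overlapped (log2 0.10 ± 0.34 SE, adjusted p = 0.817), and relative to the median of all miRNAs its difference was -0.13. In all, 8 of the 9 members had both MCS libraries above both 2D libraries, as did 45.4% of all tested miRNAs. The miRNAs hsa-miR-200a-3p and hsa-miR-141-3p were among those the study selected on these same libraries, so their direction is not independent evidence.

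The DLD1 calls depended on how the libraries were scaled and on single libraries more than the direction did. The 6 called members and hsa-miR-429 were higher in MCS under all 17 alternatives tried. Alternatives that changed only the filter, the edgeR test or the threshold kept nearly the same fold change. They could therefore not turn the direction. With TMM factors the same count of 6 was called, against 76 miRNAs up and 63 down over the table in place of 104 up and 40 down (22% up in place of 30.1%). With library totals alone 5 members were called, against 61 up and 89 down in all (17.6% up). With the upper quartile taken over the tested miRNAs alone, the members called fell to 3 (hsa-miR-200a-3p, hsa-miR-200b-3p and hsa-miR-200b-5p) with 14.5% of all miRNAs called up. When all 8 libraries shared 1 estimate of the spread, only hsa-miR-200a-3p was called, with 6.65% of all miRNAs called up. The main DLD1 fit took the spread largely from all miRNAs together (infinite median prior degrees of freedom). Its very small adjusted p-values, here and in the lists below, hold for that setting. The smallest over the table was 2.26e-32 there, 1.52e-05 with TMM factors and 0.00916 with all libraries in 1 fit (edgeR). Without the second 2D library the calls were hsa-miR-200a-3p and hsa-miR-200b-5p, 2 in all, with 14.8% of all miRNAs called up. The distance of the members' median from that of all miRNAs was 0.75 in the main scaling and 0.76 with TMM factors. It was 0.77 with library totals and 0.73 with the upper quartile of tested miRNAs. A change of scaling shifts all miRNAs nearly alike, so it could hardly move this distance. With a library left out the distance ranged from 0.59 to 0.80.

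**Figure D2:**
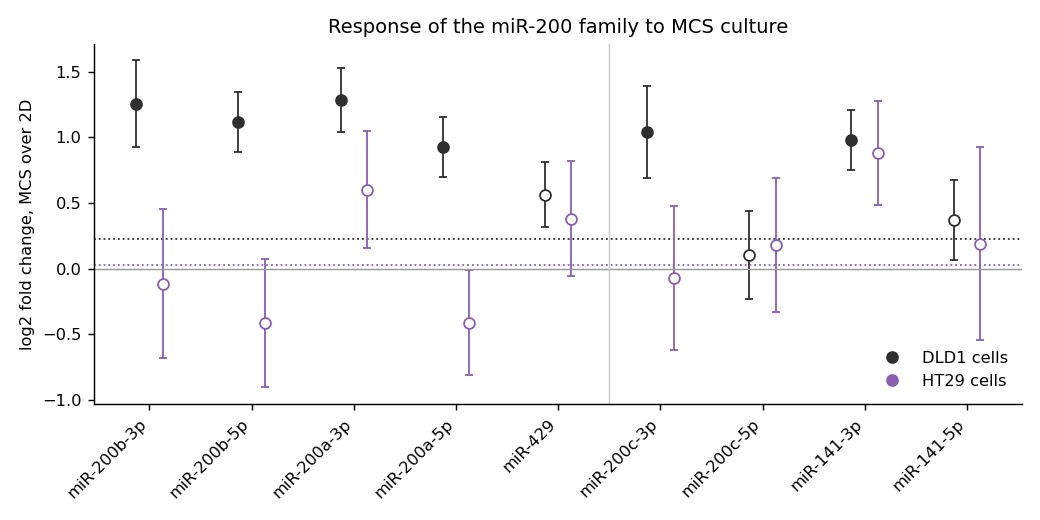
Log2 fold change of MCS over 2D for each member in DLD1 (black) and HT29 (purple) cells; bars are ± 1 SE of the edgeR fit, filled points passed the test, open points did not, and dotted lines mark the median of all tested miRNAs in each line (0.23 and 0.03). The 6 filled points are all DLD1, from 0.93 to 1.28, while the HT29 points lie from -0.42 to 0.88 with wider bars.

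In HT29 cells no member was called as different between MCS and 2D. The edgeR quasi-likelihood test called 0% of the 301 tested miRNAs, with a smallest adjusted p of 0.558 over the whole table. At an unadjusted p under 0.05 it found 13 of them, 4.32%, and 0 members. Over all miRNAs the exact test of edgeR called 4 up and 1 down, and DESeq2 8 up and 4 down, again with 0 members. With the replicate number as a block, the quasi-likelihood test called 33 up and 14 down, also with 0 members. Libraries of the same number deviated largely alike from their group means (correlation 0.792), but the labels do not pair them. The biological coefficient of variation was 0.521 in HT29 and 0.193 in DLD1. With this spread and 2 libraries per group, the missing calls do not show that the levels in HT29 were equal.

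The members nevertheless did not lie alike. For hsa-miR-141-3p the HT29 levels were 1438 and 1329 normalized CPM in 2D and 2856 and 2246 in MCS. Its groups were apart, with a log2 fold change of 0.88 ± 0.40 SE (adjusted p = 0.969, edgeR). Levels of hsa-miR-200a-3p, which shares its seed, were 9673 and 8467 in 2D against 12314 and 15239 in MCS, likewise without overlap (log2 0.60 ± 0.45 SE, adjusted p = 0.978). For hsa-miR-429, values of 6003 and 6926 in 2D stood against 7237 and 9584 in MCS. Its groups too were apart, by a smaller distance (log2 0.38 ± 0.44 SE, adjusted p = 0.978). The opposite order was seen for hsa-miR-200a-5p, which was at 450 and 389 in 2D and at 351 and 282 in MCS (log2 -0.41 ± 0.40 SE, adjusted p = 0.978). On the normalized scale these 4 of the 9 members did not overlap between the cultures, and 28.6% of all tested miRNAs did not either. The upper quartile factors were 0.522 and 1.66 in HT29 2D and 0.741 and 1.56 in HT29 MCS. As shares of all counts, without these factors, all 4 overlapped. For hsa-miR-141-3p the shares were 0.0751% and 0.221% in 2D against 0.212% and 0.349% in MCS. For hsa-miR-200a-5p they were 0.0235% and 0.0646% in 2D against 0.0260% and 0.0438% in MCS.

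The 2 most abundant members overlapped between the cultures in HT29. Levels of hsa-miR-200b-3p were 61294 and 69774 in 2D and 49447 and 71549 in MCS (log2 -0.12 ± 0.57 SE). For hsa-miR-200c-3p they were 20716 and 10707 in 2D and 16905 and 12980 in MCS (log2 -0.07 ± 0.55 SE). In both cases the gap between replicates exceeded the gap between group means. The minor products hsa-miR-200b-5p, hsa-miR-141-5p and hsa-miR-200c-5p overlapped as well, with log2 fold changes of -0.42, 0.19 and 0.18. Without the replicate 1 libraries, which stood apart, 1 library per culture is left and no test can be made. Between these 2 libraries the MCS to 2D ratio was 1.80 for hsa-miR-200a-3p, 1.69 for hsa-miR-141-3p, 1.38 for hsa-miR-429, 1.03 for hsa-miR-200b-3p and 0.723 for hsa-miR-200a-5p, each on the same side of 1 as in the fit except hsa-miR-200b-3p. For hsa-miR-200c-3p (1.21) and hsa-miR-200b-5p (1.15) that ratio was also on the other side of 1 from the fit.

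Whether the response to MCS differed between the lines was tested as an interaction over 250 miRNAs. No miRNA passed (0% called, edgeR), whereas 25 had an unadjusted p under 0.05, 10% of those tested. DESeq2 called 10 positive and 11 negative differences. With the replicate number as a block, edgeR called 11 positive and 29 negative differences. Those of hsa-miR-200a-5p, hsa-miR-200b-3p and hsa-miR-200b-5p were among the negative ones. Among the members, 3 had an unadjusted p under 0.05 in the main fit, all with a lower response in HT29 than in DLD1. With TMM factors the count was also 3. With library totals alone it was 0, against 8 of all miRNAs. With the upper quartile over tested miRNAs it was 0 as well, against 34 of all miRNAs. The difference of the log2 fold changes (HT29 minus DLD1) was -1.35 ± 0.38 SE for hsa-miR-200a-5p (adjusted p = 0.202), -1.54 ± 0.52 SE for hsa-miR-200b-5p (adjusted p = 0.335) and -1.39 ± 0.52 SE for hsa-miR-200b-3p (adjusted p = 0.378). The median over all miRNAs was -0.23, which makes these differences -1.12, -1.31 and -1.16 relative to it. All 3 came from the miR-200b and miR-200a hairpins of chromosome 1. The difference for hsa-miR-200c-3p of chromosome 12 was -1.12 ± 0.59 SE, however. For hsa-miR-200a-3p and hsa-miR-429 of chromosome 1 it was -0.71 and -0.20, so no split by locus can be read from these values. Over the other 6 members the adjusted p ranged from 0.651 to 0.988. Of the members, DESeq2 called hsa-miR-200a-5p alone. A call in DLD1 with none in HT29 does not by itself show a difference between the lines.

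Ratios of counts within a library do not depend on the scaling, and 9 were compared, with a two-sided exact permutation test that exchanged culture labels within lines or line labels within cultures (36 arrangements, smallest possible p = 0.0556). No ratio could thus pass 0.05. Adjusted values are over the 9 ratios.

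The balance of the 2 loci lay far apart in the 2 lines, while its mean difference between the cultures was near 0. For the 3p products and hsa-miR-429, chromosome 1 gave 0.745 and 0.667 counts for each count of chromosome 12 in DLD1 2D and 0.767 and 0.790 in MCS. All DLD1 libraries thus had more from chromosome 12. In HT29 the ratio was 3.47 and 7.08 in 2D and 3.49 and 6.33 in MCS for replicates 1 and 2, so every HT29 library had more from chromosome 1. The mean difference between the cultures was 0.03 on the log2 scale (exact permutation p = 0.722, adjusted 0.778), and each replicate number gave nearly the same ratio in both HT29 cultures. Between the lines it was 2.70, a 6.51-fold difference that held in both cultures (exact permutation p = 0.0556, the smallest possible, adjusted 0.0714). In shares of all counts, chromosome 12 members held 5.44 to 9.53% in the DLD1 libraries and 1.16 to 2.38% in the HT29 libraries, while chromosome 1 members held 4.17 to 7.56% and 4.07 to 15.1%.

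Within the loci, hsa-miR-141-3p was scarce beside its neighbour hsa-miR-200c-3p, by 70.5- to 146-fold in the DLD1 libraries and by 5.78- to 14.4-fold in the HT29 libraries. The ratio was 12.8-fold higher in HT29 (exact permutation p = 0.0556, adjusted 0.0714). In HT29 both MCS values (5.92- and 5.78-fold) were nearer to balance than both 2D values (14.4- and 8.06-fold), whereas the DLD1 values overlapped. The culture difference over both lines was 0.44 on the log2 scale (exact permutation p = 0.278, adjusted 0.600). Since both seeds come from both loci, the balance of the seeds was also counted. The group of hsa-miR-200b-3p, hsa-miR-200c-3p and hsa-miR-429 exceeded the group of hsa-miR-200a-3p and hsa-miR-141-3p by 24.0- to 35.7-fold in DLD1 libraries and by 4.85- to 8.92-fold in HT29 libraries. In HT29 it was 7.92 and 8.92 in 2D and 4.85 and 5.38 in MCS, without overlap, and in DLD1 the cultures overlapped (culture difference exact permutation p = 0.111, adjusted 0.333).

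The products of the chromosome 1 hairpins did not move in step. In DLD1 the count of hsa-miR-200b-3p was 6.16 and 7.75 times that of hsa-miR-429 in 2D and 11.2 and 11.1 times in MCS. In HT29 it was 10.2 and 10.1 times in 2D and 6.83 and 7.47 times in MCS. The ratio of hsa-miR-429 to hsa-miR-200b-3p was thus lower in MCS in DLD1 (log2 -0.69) and higher in MCS in HT29 (log2 0.51), with no overlap in either line. A test of this difference in response, chosen after the values had been seen, gave 1.20 on the log2 scale (exact permutation p = 0.0556, the smallest possible, adjusted 0.5 over the 9 ratios).

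**Figure D3:**
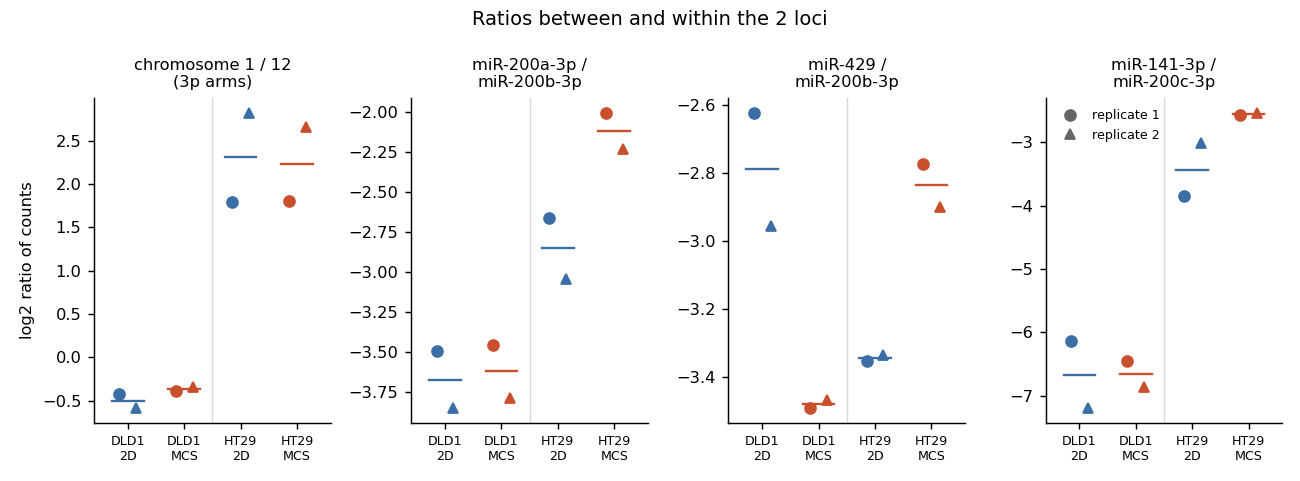
Log2 ratio of counts in each library, from left to right for the 3p products and hsa-miR-429 of chromosome 1 over chromosome 12, hsa-miR-200a-3p over hsa-miR-200b-3p, hsa-miR-429 over hsa-miR-200b-3p, and hsa-miR-141-3p over hsa-miR-200c-3p; blue is 2D, red is MCS, circles are replicate 1, triangles replicate 2, and lines group means (n = 2). The first panel lies below 0 in all DLD1 libraries and at 1.80 or above in all HT29 libraries, and in the third the cultures are in opposite order in the 2 lines.

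In each of the 4 hairpins with counts on both arms the 3p arm led in every library, by very different margins. For miR-200a the 3p arm exceeded the 5p arm by 3.54- and 3.03-fold in DLD1 2D and by 4.70- and 3.84-fold in MCS. In HT29 the lead was 21.5- and 21.7-fold in 2D and 35.1- and 54.1-fold in MCS. Both lines therefore had a lower 5p to 3p ratio in MCS, without overlap, with differences of -0.38 (DLD1) and -1.01 (HT29) on the log2 scale. It was the one ratio to reach the smallest p the culture test allows (exact permutation p = 0.0556, adjusted 0.333), and the difference between the lines was larger, at -3.04 on the log2 scale for HT29 minus DLD1 (exact permutation p = 0.0556, adjusted 0.0714).

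For miR-200b the 3p lead was 65.9- to 81.3-fold in the DLD1 libraries and 147- to 325-fold in the HT29 libraries, with the cultures overlapping in both lines. For miR-141 it was 16.8- and 19.2-fold in DLD1 2D, 27.98- and 28.97-fold in DLD1 MCS, and 32.7- to 164-fold in HT29, where the replicates were far apart. For miR-200c, whose 5p arm had few counts, it ran from 997- to 7197-fold over the 8 libraries. In DLD1 the miR-200c lead was higher in both MCS libraries (6957- and 7197-fold) than in both 2D libraries (2794- and 4841-fold), and in HT29 the cultures overlapped. The culture differences of these 3 hairpins had exact permutation p values from 0.333 to 0.611. The 5p to 3p ratio was lower in all HT29 libraries than in all DLD1 libraries for miR-200b and miR-141, as for miR-200a, with adjusted 0.0714 each, but not for miR-200c (exact permutation p = 0.111, adjusted 0.125), where DLD1 and HT29 overlapped in 2D.

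**Figure D4:**
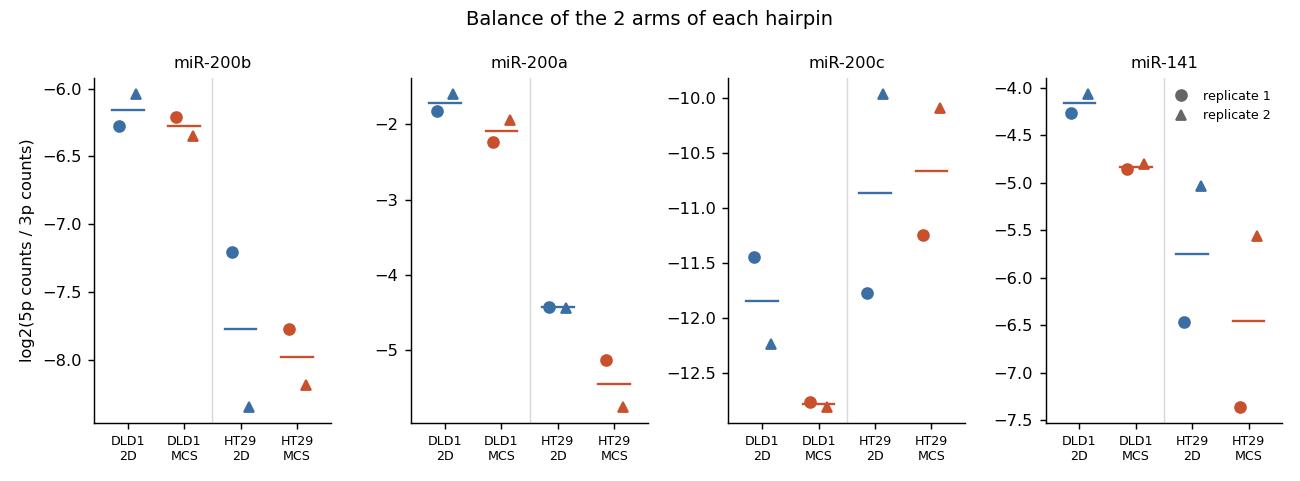
Log2 ratio of 5p to 3p counts for the miR-200b, miR-200a, miR-200c and miR-141 hairpins in each library; blue is 2D, red is MCS, circles are replicate 1, triangles replicate 2, and lines group means (n = 2), and each panel has its own scale. The miR-200a panel shows MCS below 2D in both lines, from -1.71 to -2.09 on average in DLD1 and from -4.43 to -5.45 in HT29.

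The family was set beside other miRNAs of epithelial cells and of EMT, chosen by function. Of 10 epithelial miRNAs, 9 were tested in DLD1 and 8 were up-regulated in MCS, with a median log2 fold change of 0.97 against 0.23 for all miRNAs, of which 30.1% were called up. With TMM factors or library totals 5 of the 9 were called up, against 22% and 17.6% of all miRNAs. Those with the highest fold changes in the main fit were hsa-miR-192-5p (log2 2.34 ± 0.24 SE, adjusted p = 5.65e-19, edgeR) and hsa-miR-194-5p (2.13 ± 0.25 SE, adjusted p = 3.85e-15), both enriched in intestinal epithelium, and hsa-miR-203a-3p (2.06 ± 0.27 SE, adjusted p = 5.84e-13), known from skin and other epithelia. In HT29, 0 of the 10 were called by edgeR, with a median of 0.49 against 0.03 for all miRNAs. In both lines the intestinal hsa-miR-192-5p was measured in every library, at 645 to 3960 normalized CPM on the DLD1 scale and 15588 to 99608 on the HT29 scale. A marker of stratified epithelia, hsa-miR-205-5p, was at 0.627 to 2.16 in the DLD1 libraries. In the HT29 libraries it was at 482.8 and 721.6 in 2D and 159.5 and 322.1 in MCS (log2 -1.32 ± 0.53 SE, adjusted p = 0.927).

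Of 14 miRNAs with known links to EMT, 13 were in the table and 11 were tested in DLD1, where 5 rose and 2 fell, against 30.1% up and 11.6% down over all miRNAs. The list holds miRNAs reported to promote EMT and others reported to oppose it, so no common direction was looked for. Of the 5 that rose, hsa-miR-9-5p, which silences E-cadherin, had the highest fold change (log2 3.03 ± 0.27 SE, adjusted p = 9.44e-26, edgeR). Next came hsa-miR-10b-5p, a target of TWIST1 (2.39 ± 0.24 SE, adjusted p = 3.34e-20), and hsa-miR-101-3p (1.41 ± 0.24 SE, adjusted p = 5.93e-08). The others were hsa-miR-29b-3p (1.04 ± 0.26 SE, adjusted p = 0.00039) and the p53 target hsa-miR-34a-5p (0.89 ± 0.25 SE, adjusted p = 0.00137). Those that fell were hsa-miR-30a-5p (-2.51 ± 0.26 SE, adjusted p = 4.88e-19) and hsa-miR-222-3p (-0.95 ± 0.27 SE, adjusted p = 0.00171). With TMM factors 5 rose and 4 fell, where 22% of all miRNAs rose and 18.2% fell. With library totals 4 rose and 5 fell, where 17.6% of all rose and 25.7% fell. In HT29 0 of 10 tested were called.

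Markers of other cell types were scarce but did not all stay level. Of 8 stromal miRNAs 7 were in the table, none was tested, and their summed level was 1.09 to 10.4 normalized CPM in any library, with hsa-miR-214-3p at 0 in all DLD1 libraries. Of 6 blood cell miRNAs 5 were in the table. Their sum was 33.8 to 54.1 in DLD1 2D and 139.6 to 174.6 in DLD1 MCS, and 50.3 to 68.6 in HT29 2D and 180.4 to 263.2 in HT29 MCS. In DLD1 the sum was nearly all hsa-miR-142-3p and hsa-miR-142-5p, which both rose (log2 1.57 ± 0.32 SE, adjusted p = 5.39e-06, and 2.19 ± 0.30 SE, adjusted p = 3.12e-11, edgeR), while hsa-miR-150-5p was at 0. In HT29, hsa-miR-150-5p was at 12.04 and 6.83 in 2D and 51.6 and 40.9 in MCS (log2 2.30 ± 0.52 SE, adjusted p = 0.573). The endothelial hsa-miR-126-3p had 67.7 and 77.5 in DLD1 2D and 76.2 and 126.0 in MCS, and 4.20 to 9.84 in the HT29 libraries. The 2 muscle miRNAs summed to 1.14 to 1.82 in DLD1 2D and 11.0 to 12.1 in DLD1 MCS, mostly hsa-miR-1-3p with 22 and 33 counts in 2D and 181 and 168 in MCS. In HT29 their sum was 13.9 to 96.3 in 2D and 19.6 to 123.0 in MCS. The part of these markers in the family's result was not tested.

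The miRNAs whose levels followed the family most closely were named by the correlation with the mean log2 level of the 5 main products (the 3p arms and hsa-miR-429), over the 8 libraries after centring each line, among 250 miRNAs measured in both lines. The 8 points share culture and library scaling, and the values are a description. The 5 highest outside the family were hsa-miR-34a-5p (Pearson r 0.970), hsa-miR-203a-3p (0.967), hsa-miR-30c-5p (0.965), hsa-miR-203b-5p (0.961) and hsa-miR-374a-5p (0.955). For these 5, r within DLD1 was 0.984 to 0.998 over 4 libraries, and within HT29 it was 0.597 to 0.890. Of the family's own members, hsa-miR-200a-3p had 0.982 and the other main products 0.796 to 0.858. For hsa-miR-200a-5p and hsa-miR-200b-5p r was 0.717 and 0.731, and for hsa-miR-141-5p and hsa-miR-200c-5p it was 0.280 and 0.224. The 5 outside miRNAs were picked for the highest r, and each main product is part of the mean it was set against. These values therefore cannot show whether members or other miRNAs followed the family more closely.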

How the data were processed

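Small RNA was sequenced from 8 libraries (2 cell lines, 2 cultures, 2 replicates each). The authors deposited raw read counts per mature miRNA, one table per library and one joint table. All 12572 values shared by these tables were equal, and the joint table was used. The submitters' processing notes name CASAVA 1.8.3, cutadapt 1.11, Bowtie2 2.1.0 and edgeR 3.4.2. In 1 library, 15 entries that name no miRNA held 0.00988% of the counts and were left out.

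Within each line, miRNAs whose mean reached 10 CPM were fitted with edgeR 4.0.16 (R 4.3.3; upper quartile factors, quasi-likelihood test, Benjamini-Hochberg adjustment, adjusted p under 0.05 and 1.5-fold). The newer form of that fit was chosen over the earlier one after counts of calls from both had been seen. The standard error is the log2 fold change divided by the root of the F statistic. The interaction was fitted on all libraries. Ratios used counts with 0.5 added and two-sided exact permutation tests (scipy 1.17.1). A single comparison of 2 against 2 libraries cannot give an exact p under 0.333. Library totals were 10495634 to 26211524, so counting error was small beside the spread between replicates (chi-square per degree of freedom 154.1 to 5085 between replicates). The labels call the replicates biological and do not say whether they were separate cultures, so the p-values measure only the spread between these libraries, which may be technical.

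The scripts were tested on simulated data. The members, the lists and the tests were chosen with earlier results of these data known. The rule for named miRNAs was all 9 members, the lists of other miRNAs, and the 5 miRNAs most like the family. Which list members to describe, hsa-miR-10a-5p and hsa-miR-550a-3p were chosen after their values or sequences were seen. Alternatives covered scaling, filter, tool, threshold, replicate block, pseudocount and each library left out, with DESeq2 1.42.0 among the tools.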

Additional observations from a re-analysis of the deposited data

Results flagged for a closer look

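On the normalized scale, the cultures lay in opposite order in the 2 lines for hsa-miR-200a-5p. Both MCS libraries were above both 2D libraries in DLD1 (1161 and 1597 against 731 and 718 normalized CPM), as for 45.4% of all tested miRNAs. Both were below in HT29 (351 and 282 against 450 and 389), where 28.6% did not overlap in either direction. The HT29 difference passed no test (log2 -0.41 ± 0.40 SE, adjusted p = 0.978, edgeR). As shares of all counts, the HT29 cultures overlapped (0.0235% and 0.0646% in 2D, 0.0260% and 0.0438% in MCS). The difference of the log2 fold changes, HT29 minus DLD1, was -1.35 ± 0.38 SE, with an adjusted p = 0.202 over 250 miRNAs (edgeR). It was negative under all 18 alternatives, from -1.47 to -0.82. Those that changed only the filter, the form of the edgeR fit or the threshold kept it at -1.35. They could therefore not turn its sign.

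The ratio of hsa-miR-429 to hsa-miR-200b-3p, products of the same locus, was lower in MCS in every DLD1 library and higher in MCS in every HT29 library. The difference in response between the lines was 1.20 on the log2 scale (exact permutation p = 0.0556, the smallest that 36 arrangements allow, adjusted 0.5 over 9 ratios).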

How the results depend on the processing

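Under the alternatives the 6 DLD1 calls kept their direction, which those changing only the filter, the edgeR test or the threshold could not turn. No member was called in HT29 under any alternative. In DLD1 the members called were 3 with the upper quartile over tested miRNAs, 1 with all libraries in 1 fit, and 2 to 7 when a library was left out (with 51 to 78 miRNAs up over the table). The interaction called 1 member with DESeq2 (hsa-miR-200a-5p), and 3 at an unadjusted p under 0.05 in the main scaling. With library totals alone or the upper quartile over tested miRNAs, 0 members had an unadjusted p under 0.05. The labels name no batch or culture shared by libraries of the same replicate number. Their deviations from the group means correlated by 0.327 in DLD1 and 0.792 in HT29, so HT29 libraries of the same number deviated largely alike. The replicate block gave 6 called members in DLD1 (99 miRNAs up and 40 down over the table) and 0 in HT29 (33 up and 14 down). In the interaction it gave 3 (hsa-miR-200a-5p, hsa-miR-200b-3p and hsa-miR-200b-5p, all negative, with 11 positive and 29 negative over the table). Under the block, ratios gave culture p values no lower than 0.125, the smallest that 16 arrangements allow.

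Sign changes were limited to values that passed no test, and their cause was not tested. In DLD1, hsa-miR-200c-5p had log2 fold changes of -0.10 (TMM), -0.021 (DESeq2 size factors), -0.28 (library totals), -0.34 (upper quartile over tested miRNAs) and -0.17 (DESeq2), and hsa-miR-141-5p had -0.077 (upper quartile over tested miRNAs). Without a library their ranges were -0.32 to 0.25 and -0.072 to 0.57. In HT29, library totals gave 0.001 for hsa-miR-200b-3p and 0.19 for hsa-miR-200c-3p, and the upper quartile over tested miRNAs gave -0.11 for hsa-miR-200c-5p and -0.13 for hsa-miR-141-5p. Without a library the HT29 ranges were -0.43 to 0.10 (hsa-miR-200b-3p), -0.90 to 0.13 (hsa-miR-200b-5p), -0.56 to 0.47 (hsa-miR-200c-3p), -0.19 to 0.50 (hsa-miR-200c-5p) and -0.75 to 0.92 (hsa-miR-141-5p). Interaction values with library totals, the upper quartile over tested miRNAs and DESeq2 were 0.29, 0.41 and 0.067 for hsa-miR-141-3p, 0.20, 0.29 and 0.018 for hsa-miR-141-5p, and 0.30, 0.31 and 0.018 for hsa-miR-429. Without a library they were -0.53 to 0.25, -1.07 to 0.67 and -0.38 to 0.033, and -0.24 to 0.44 for hsa-miR-200c-5p.

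Without a library, the culture difference was -0.22 to 0.29 for the locus ratio, -0.45 to 0.12 for the miR-200b arms and -0.82 to 0.081 for the miR-200c arms, and the line difference was -0.039 to 0.13 for hsa-miR-429 over hsa-miR-200b-3p. Leaving hsa-miR-10a-5p out of the denominator gave DLD1 shares of 12.3% (2D) and 20.9% (MCS). The epithelial miRNAs called up in DLD1 were 5 with TMM factors, 5 with library totals and 4 to 6 without a library. Of the EMT miRNAs, 4 fell with TMM factors, 5 fell with library totals, and 3 to 5 rose and 2 to 4 fell without a library. The scarcest members, hsa-miR-200c-5p and hsa-miR-141-5p, had as few as 32 and 89 counts in a library, and their HT29 replicates still differed beyond the 95% Wilson intervals.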
